A study of Homo sapiens with 3 samples.

Results

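The EGF receptor family consists of EGFR, ERBB2, ERBB3 and ERBB4, transmembrane receptors that pair with each other when a ligand binds and then phosphorylate their tails to start MAP kinase and PI3 kinase signalling. ERBB2 binds no known ligand, and ERBB3 has a weak kinase and signals through its partner. The ligands are made as membrane-anchored precursors that proteases of the ADAM family release from the cell surface. In the intestine this signalling drives the growth and repair of the epithelium, and EGFR is the target of antibodies used against colorectal cancer.

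The 10 genes described here are these 4 receptor genes and 6 ligand genes, EREG, TGFA, HBEGF, BTC, EPGN and NRG1. They were taken by symbol from the array annotation, and all 10 were measured, of 18417 genes with a value. RNA from 3 cultures of LoVo, an established human colorectal cancer line, was hybridized to Affymetrix Human Gene 1.0 ST arrays, 1 for each culture. LoVo 8R+ and LoVo 8R- are LoVo-R8 cells, a subline made from LoVo by stepwise selection in irinotecan, a topoisomerase I inhibitor, from 0.1 to 8 μM. Neither the labels nor the methods say whether LoVo-R8 is a single clone. LoVo 8R+ was cultured with 8 μM irinotecan and LoVo 8R- without it, and LoVo is the parental line that was not selected. The drug state is that of the sample labels. The study's legend names the drug-free array as the one used, whereas the fold changes it tabulates point to the array labelled as drug-treated, and the labels were not tested. An exchange of both labels would turn the direction of each difference between LoVo 8R+ and LoVo 8R- below, and would give the HBEGF, BTC and EREG values to the other culture. A treatment text shared by all the labels mentions irinotecan for 24 hours before RNA purification, so the labels leave unclear whether the parental cells had the drug. The deposited values are log2 levels made by the robust multichip average (RMA) method.

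No culture has a replicate, so neither errors nor p-values are given, and precision is limited by the number of arrays. A difference is a subtraction of 2 log2 levels, and higher or lower was counted from 2-fold on. As a scale for sizes, 95% of genes differed by under 0.53 between LoVo 8R+ and LoVo 8R-, and 99% by under 0.90. The arrays had medians of 6.94 in LoVo 8R+, 6.95 in LoVo 8R- and 6.94 in LoVo, and first quartiles of 5.39, 5.42 and 5.39. Of 10 markers of colorectal epithelium, 1 lay below the array median in LoVo 8R+, 2 in LoVo 8R- and 1 in LoVo. The summed log2 level of these markers was 100.92, 99.45 and 102.51. Of 7 fibroblast markers, 6, 5 and 6 lay below the array median, and all 4 endothelial markers did on every array. Of 5 leukocyte markers 4 lay below it on each array, with PTPRC, the common leukocyte antigen, at 4.12 on all of them, and CD68 at 11.51, 11.12 and 9.64 was the other. The summed log2 levels lay between 41.59 and 41.91 for fibroblast, 21.97 and 22.57 for endothelial and 31.28 and 33.44 for leukocyte markers.

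The EGFR ligand genes HBEGF, BTC and EREG varied most among the 10. Their promoters are shown because these genes were all lower in LoVo 8R+ than in LoVo 8R-. Each sequence is the 250 bases before the RefSeq start of the gene on GRCh38.p14, 5′ to 3′ on the strand of the gene. EREG and BTC lie near each other on chromosome 4, at chr4:74364895-74365144 (plus strand) and chr4:74794524-74794773 (minus strand), and HBEGF lies at chr5:140346604-140346853 (minus strand). Capitals mark matches, on either strand, to the TATA box letters TATAAA, the letters CCAAT of the box of that name, the GC box letters GGGCGG and the AP-1 letters TGANTCA.
EREG promoter: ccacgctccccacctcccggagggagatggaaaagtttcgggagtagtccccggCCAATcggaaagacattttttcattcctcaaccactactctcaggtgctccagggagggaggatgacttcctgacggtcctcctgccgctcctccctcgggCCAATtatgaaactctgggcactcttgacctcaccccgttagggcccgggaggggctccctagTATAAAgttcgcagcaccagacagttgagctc
BTC promoter: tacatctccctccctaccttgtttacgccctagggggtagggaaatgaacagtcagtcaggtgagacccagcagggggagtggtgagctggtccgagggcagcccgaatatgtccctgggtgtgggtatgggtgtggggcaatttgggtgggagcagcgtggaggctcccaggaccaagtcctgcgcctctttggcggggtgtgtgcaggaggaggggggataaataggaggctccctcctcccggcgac
HBEGF promoter: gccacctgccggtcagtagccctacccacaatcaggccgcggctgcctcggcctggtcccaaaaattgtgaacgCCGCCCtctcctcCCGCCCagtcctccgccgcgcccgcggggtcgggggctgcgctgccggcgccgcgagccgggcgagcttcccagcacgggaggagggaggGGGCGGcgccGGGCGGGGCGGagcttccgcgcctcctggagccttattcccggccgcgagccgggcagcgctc
The EREG promoter held 1 TATAAA and 2 CCAAT, the HBEGF promoter held 5 GGGCGG, 2 of which overlap, and the BTC promoter held none of these motifs. None of the promoters held TGANTCA. Over 35116 RefSeq promoters of the same length, TATAAA was found in 10.7%, CCAAT in 32.0%, GGGCGG in 42.6% and TGANTCA in 6.57%. The G and C bases made up 58.0% of the EREG, 62.0% of the BTC and 76.4% of the HBEGF promoter. These matches are a description of the letters in these windows. No motif among those searched was found in all of these promoters.

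The receptor genes had nearly the same levels on all arrays. EGFR, the receptor of EREG, TGFA, HBEGF, BTC and EPGN, had log2 levels of 10.19 in LoVo 8R+, 10.25 in LoVo 8R- and 10.36 in LoVo. ERBB2, the preferred partner of the other receptors, had levels of 8.64 in LoVo 8R+, 8.53 in LoVo 8R- and 8.59 in LoVo. ERBB3, a receptor of neuregulins, had 10.19 in LoVo 8R+, 10.09 in LoVo 8R- and 10.30 in LoVo. These receptor RNAs lay above the array median in the parental and in the selected cells. ERBB4, which binds neuregulins as well as BTC, EREG and HBEGF, had 5.48 in LoVo 8R+, 5.65 in LoVo 8R- and 5.56 in LoVo, below the median of each array. Differences of log2 levels from LoVo lay between -0.18 and 0.05 in LoVo 8R+ and between -0.21 and 0.09 in LoVo 8R-. Differences of LoVo 8R+ from LoVo 8R- lay between -0.18 and 0.11. No receptor gene was near 2-fold in any comparison, and the order of the arrays was not the same from one receptor gene to the next. The order rests on differences smaller than the 0.53 that bounds 95% of genes between the LoVo-R8 arrays.

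**Figure D1:**
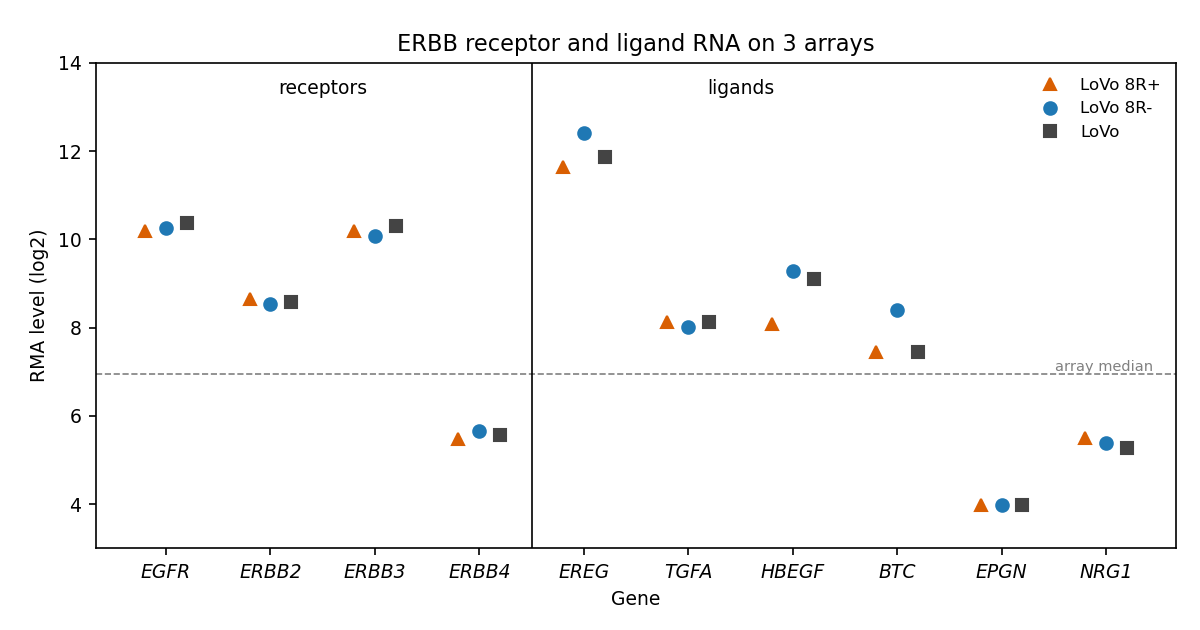
RMA log2 level (vertical axis) of each of the 10 genes (horizontal axis) in LoVo 8R+ (triangles), LoVo 8R- (circles) and LoVo (squares), 1 array each, with the array median as a dashed line. HBEGF (8.07, 9.29 and 9.10), BTC (7.45, 8.39 and 7.45) and EREG (11.64, 12.40 and 11.88) vary between arrays, and the receptor genes stay within 0.21 of LoVo. Levels of different genes come from different probe sets and are not comparable.

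HBEGF encodes heparin-binding EGF-like growth factor, a ligand of EGFR and ERBB4. Its log2 level was 8.07 in LoVo 8R+, 9.29 in LoVo 8R- and 9.10 in LoVo, so that the culture labelled as having irinotecan stood below both others. In RNA from a whole culture, fewer cells that express a gene and less RNA in each cell cannot be told apart. HBEGF in LoVo 8R+ was 2.04-fold lower than in LoVo, a log2 difference of -1.03, and 2.33-fold lower than in LoVo 8R-, a log2 difference of -1.22. In LoVo 8R- it was within 1.5-fold of LoVo (log2 difference 0.19). HBEGF was the only one of the 10 at least 2-fold lower in LoVo 8R+ than in LoVo, where 2.30% of all genes were. The call lies at the threshold, and with loess correction (-0.995) or repeated quantile normalization (-0.985) it was not reached. Against LoVo 8R- it was also the only one of the 10 at least 2-fold lower, beside 0.114% of all genes, and it was the 12th lowest of 18417.

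BTC encodes betacellulin, a ligand of EGFR and ERBB4. Its log2 level was 7.45 in LoVo 8R+, 8.39 in LoVo 8R- and 7.45 in LoVo, so that only the LoVo-R8 culture labelled drug-free was high. BTC in LoVo 8R- was 1.92-fold higher than in LoVo (log2 difference 0.94), just under 2-fold. The deposited values for LoVo 8R+ and LoVo were equal. Such ties between at least 2 of the 3 arrays occur for 26.1% of probe sets. Their cause was not tested, and an equal value is not a measurement of no difference. Between the LoVo-R8 cultures BTC was 1.92-fold lower in LoVo 8R+ (-0.94) and ranked 31st from the lowest.

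EREG encodes epiregulin, a ligand of EGFR and ERBB4 whose RNA has been studied as a marker for EGFR antibodies in colorectal cancer. Its log2 level was 11.64 in LoVo 8R+, 12.40 in LoVo 8R- and 11.88 in LoVo. LoVo 8R- was again the highest array, and LoVo 8R+ was the lowest. EREG was 1.44-fold higher in LoVo 8R- than in LoVo (log2 difference 0.527) and had a difference of -0.24 in LoVo 8R+. Both are smaller in size than the 0.530 that bounds 95% of genes between the LoVo-R8 arrays. The place of LoVo in the order rests on them. Between the LoVo-R8 cultures it was 1.70-fold lower in LoVo 8R+ (-0.77) and ranked 75th from the lowest.

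The other listed ligand genes differed little or were dim. TGFA, which encodes the EGFR ligand transforming growth factor alpha, had log2 levels of 8.14 in LoVo 8R+, 8.00 in LoVo 8R- and 8.13 in LoVo and was lowest in LoVo 8R-, where BTC was highest. NRG1 encodes neuregulin 1, a ligand of ERBB3 and ERBB4, and has a pair of probe sets. The brighter one gave 5.49 in LoVo 8R+, 5.38 in LoVo 8R- and 5.28 in LoVo, and the dimmer one gave 5.11, 5.33 and 5.03. These probe sets placed different LoVo-R8 cultures highest, and both lay below the median of every array. EPGN, which encodes the EGFR ligand epigen, had the same value of 3.98 on all arrays, below the first quartile, where background limits what can be seen.

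Set side by side, 0 of the 6 ligand genes were at least 2-fold higher in any comparison. In LoVo 8R- against LoVo, 0 of the 10 genes were at least 2-fold higher and 0 lower, beside 1.64% and 2.78% of all genes. In LoVo 8R+ against LoVo, 0 were higher, beside 2.25%, and 1 (HBEGF, at the threshold) was lower, beside 2.30%. In LoVo 8R+ against LoVo 8R-, 0 were higher, beside 0.527%, and 1 (HBEGF) was lower, beside 0.114%. At 1.5-fold in that last comparison 3 of the 6 ligand genes and 0 of the 4 receptor genes were lower, beside 1.08% of all genes. The 6 ligand genes had median log2 differences of 0.00 in LoVo 8R+ cells and 0.15 in LoVo 8R- cells from LoVo, and -0.38 in LoVo 8R+ from LoVo 8R-. The 4 receptor genes had medians of -0.10, -0.09 and 0.02, and all genes had 0 in each comparison. The comparisons with LoVo share its single array, and every comparison shares an array with another, so that a stray value on 1 array enters 2 of them.

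**Figure D2:**
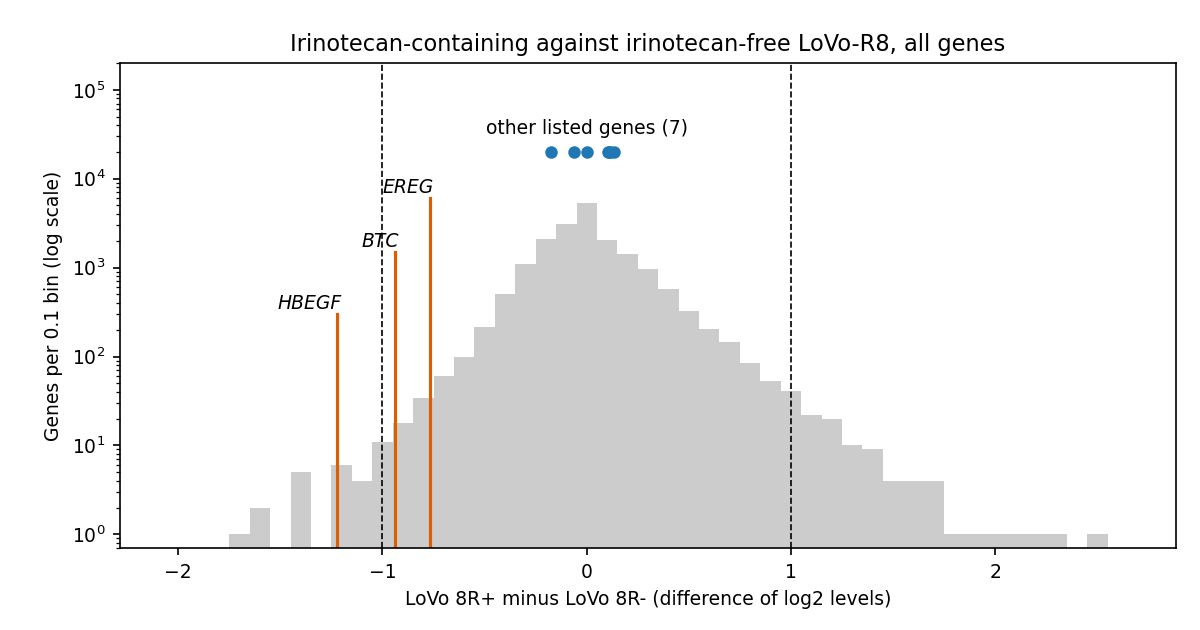
Number of genes (vertical axis, log scale) in bins of 0.1 of the log2 difference of LoVo 8R+ from LoVo 8R- (horizontal axis), for 18417 genes, with dashed lines at 2-fold. Lines mark HBEGF (-1.22), BTC (-0.94) and EREG (-0.77) in the lower tail, and dots mark the other 7 genes, which lie between -0.18 and 0.13 (their heights carry no value).

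EPGN, EREG and BTC are close to each other on chromosome 4, after a group of chemokine genes, and the genes around them did not share the EREG and BTC pattern. In LoVo 8R+ against LoVo 8R-, the 10 measured neighbours of EREG, which include BTC and EPGN, had a median log2 difference of -0.03, and BTC was the only one of them beyond 0.53. Against LoVo, these neighbours had medians of 0.03 in LoVo 8R+ cells and 0.12 in LoVo 8R- cells. The chemokine gene CXCL2 was the only neighbour at least 2-fold different, with the same difference of 1.06 in LoVo 8R+ and LoVo 8R-. PARM1, the next measured gene after BTC, differed from LoVo by 0.58 in LoVo 8R+ cells and by 0.15 in LoVo 8R- cells, the opposite order to that of BTC. On chromosome 5, the 10 measured neighbours of HBEGF had a median of -0.05 in LoVo 8R+ against LoVo 8R-, with none at 2-fold. Against LoVo their medians were -0.36 in LoVo 8R+ cells and -0.32 in LoVo 8R- cells, so that the stretch lay somewhat below parental levels on both arrays and HBEGF below it in LoVo 8R+ alone.

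**Figure D3:**
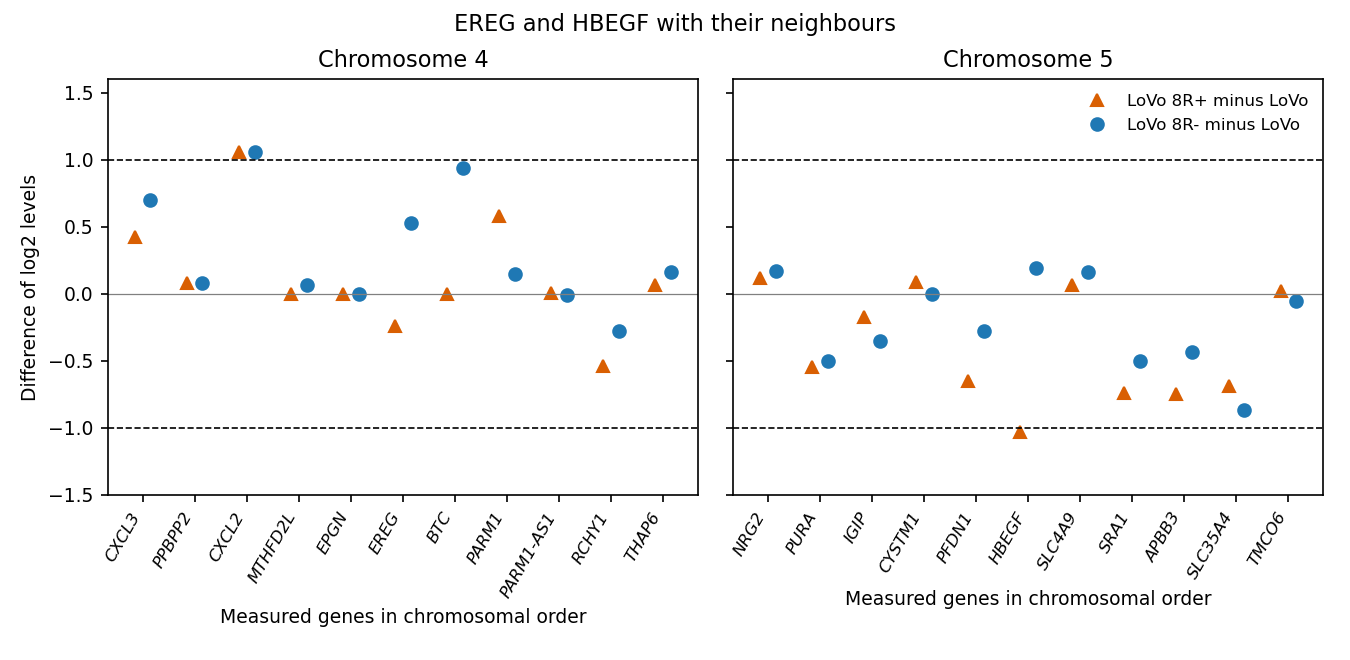
Log2 difference from LoVo (vertical axis) of EREG and of HBEGF and the 5 measured genes on each side, in chromosomal order (horizontal axis), in LoVo 8R+ (triangles) and LoVo 8R- (circles), with dashed lines at 2-fold. EREG (-0.24 and 0.53), BTC (0.00 and 0.94) and HBEGF (-1.03 and 0.19) have wider gaps between the LoVo-R8 arrays than the other genes plotted.

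Around the receptor genes, single neighbours differed where the receptor did not. LANCL2, next to EGFR on chromosome 7, differed from LoVo by -1.60 in LoVo 8R+ cells and by -1.40 in LoVo 8R- cells. The median over the 10 neighbours of EGFR was -0.05 and 0.00. Around ERBB2 on chromosome 17, IKZF3, a lymphoid transcription factor gene, had -2.12 in LoVo 8R+ cells and -1.74 in LoVo 8R- cells. PPP1R1B, a phosphatase inhibitor gene of the same stretch, had -1.10 and -1.004. GRB7, which is often co-amplified with ERBB2 in tumours, had 0.56 in LoVo 8R+ cells and 0.69 in LoVo 8R- cells, and the neighbour median was 0.21 and 0.12. No neighbour of ERBB3 or ERBB4 reached 2-fold. Beside TGFA, FAM136A had -1.35 in LoVo 8R+ cells and -1.05 in LoVo 8R- cells, and among the neighbours of NRG1 only the small RNA gene SNORD13 reached 2-fold, with 1.19 in LoVo 8R+ cells and -0.21 in LoVo 8R- cells.

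Further ligands of the family had values equal or close to those of LoVo, and most were dim. Of 5 listed, 4 were measured and 0 reached 2-fold. At most 2.78% of all genes did so in either direction of any comparison, so that 0 of so few genes says little. EGF, the founding ligand of EGFR, had levels of 5.72 in LoVo 8R+ and 5.49 in both LoVo 8R- and LoVo. NRG2 had 7.51 in LoVo 8R+, 7.56 in LoVo 8R- and 7.39 in LoVo. NRG3 was at 5.79 on all arrays, and NRG4 lay between 3.75 and 3.76, below the first quartile. EGF and NRG3 lay below the median of every array. The equal values of EGF, NRG3 and NRG4 in LoVo 8R- and LoVo are not measurements of no difference. AREG was not analysed here. Of 12 measured genes for ligand-releasing proteases and their partners, such as ADAM17 and its cofactor RHBDF2, 0 were at least 2-fold higher or lower in any comparison. Beside the same shares of all genes, this count of 0 says little too. Their log2 differences from LoVo lay between -0.56 and 0.54 in LoVo 8R+ and between -0.70 and 0.26 in LoVo 8R-. Between the LoVo-R8 cultures the widest difference was that of the protease gene ADAM19, with levels of 8.26 in LoVo 8R+ cells and 7.32 in LoVo 8R- cells (difference 0.93, 1.91-fold higher in LoVo 8R+), against 8.02 in LoVo. ADAM17, the main sheddase of TGFA and HBEGF, had levels of 9.13 in LoVo 8R+, 9.26 in LoVo 8R- and 9.29 in LoVo.

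Among listed inhibitors and ubiquitination factors of the receptors, a few stood above their parental levels in both LoVo-R8 cultures. Members of this list need not all restrain the receptors, and the direction in which each acts was not tested. Of 19 measured inhibitors and ubiquitination factors, 2 passed 2-fold upward in LoVo 8R+ relative to LoVo, 3 did so in LoVo 8R-, and 0 were lower, beside 2.25% and 1.64% of all genes above LoVo by this fold, and 2.30% and 2.78% below. CBLB, a ubiquitin ligase that targets activated receptors, had levels of 9.86 in LoVo 8R+, 10.37 in LoVo 8R- and 7.90 in LoVo. These are 3.87 and 5.52 times the LoVo level. LRIG1, a membrane protein that promotes the degradation of ERBB receptors, had 8.27 in LoVo 8R+, 7.82 in LoVo 8R- and 6.72 in LoVo. These are 2.93 and 2.15 times the LoVo level. Its relative LRIG3 had 9.46 in LoVo 8R+, 9.62 in LoVo 8R- and 8.53 in LoVo, and was counted only in LoVo 8R- (log2 differences 0.93 and 1.08). The feedback inhibitor gene ERRFI1 lay 0.48 above LoVo in LoVo 8R+ and 0.61 above it in LoVo 8R-, and the ubiquitin ligase gene CBL had 0.26 and 0.10. Other members lay below LoVo. CBLC, a ubiquitin ligase of the same family as CBLB, had -0.61 and -0.69, UBASH3B, a phosphatase that binds CBL, had -0.23 and -0.66, and the ubiquitin ligase gene STUB1 had -0.47 and -0.40. The median of the list was 0.00 in LoVo 8R+ cells and 0.10 in LoVo 8R- cells, beside 0 over all genes, close to that of the array as a whole.

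Of 32 measured adaptors and downstream kinases, 0 were at least 2-fold higher and 1 was lower in each LoVo-R8 culture, a share near the 2.30% of all genes lower in LoVo 8R+ and the 2.78% lower in LoVo 8R-. The lower gene was PIK3R3, a regulatory subunit of PI3 kinase, with levels of 6.78 in LoVo 8R+, 6.84 in LoVo 8R- and 8.30 in LoVo. The docking protein gene GAB1 came nearest on the other side, at 1.995-fold of LoVo in LoVo 8R+ (log2 difference 0.997) and 1.31-fold in LoVo 8R- (0.39). The LoVo 8R+ value lies at the threshold, so that a small change of processing can turn the call. The list had medians of 0.02 in LoVo 8R+ cells and 0.01 in LoVo 8R- cells. A further 10 listed genes of this group were not analysed here.

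Of 23 genes that respond to MAP kinase signalling, 3 were at least 2-fold higher and 0 lower in LoVo 8R+ than in LoVo, and 5 were higher and 2 lower in LoVo 8R-. The shares of all genes past the same fold in LoVo 8R+ cells were 2.25% (above LoVo) and 2.30% (below), with 1.64% and 2.78% in LoVo 8R- cells. The ETS factor gene ETV1 had levels of 8.36 in LoVo 8R+, 7.97 in LoVo 8R- and 5.13 in LoVo, which is below the first quartile, so that background limits the size of its difference. The feedback inhibitor gene SPRY2 had 10.61 in LoVo 8R+, 10.44 in LoVo 8R- and 9.29 in LoVo, and was higher in both. ETV4 (log2 differences from LoVo of 1.27 in LoVo 8R+ cells and 0.76 in LoVo 8R- cells) was counted in LoVo 8R+. EGR1 (0.74 and 1.73), FOSL1 (0.99 and 1.16) and PHLDA1 (0.81 and 1.01) were counted in LoVo 8R- alone, and FOSL1 was at 2-fold in LoVo 8R+ too with loess correction (1.01) or repeated quantile normalization (1.03). The lower genes in LoVo 8R- were PLAUR, the urokinase receptor gene (-0.98 in LoVo 8R+ cells and -1.82 in LoVo 8R- cells), and the ephrin receptor gene EPHA4 (-0.81 and -1.19). The median of the list was 0.52 in LoVo 8R+ cells and 0.30 in LoVo 8R- cells. In each, 18 of the 23 genes (78.3%) lay above their LoVo level, beside 40.9% and 48.9% of all genes. These shares count a gene with a value equal to that of LoVo as not above it. Such ties numbered 2652 and 2329 of the 18417 genes, in the same order, and 0 of the 23. The ties widen the contrast between the list and all genes. The list was chosen with earlier results of these data known, so that the contrast is a description only. Both shares rest on the same LoVo array.

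Between the LoVo-R8 cultures, 0 of these 23 genes reached 2-fold. EGR1, an immediate early gene, came nearest, with a level of 9.43 in LoVo 8R+ cells and 10.43 in LoVo 8R- cells (difference -0.996, just short of 2-fold), against 8.70 in LoVo. It passed 2-fold with loess correction or repeated quantile normalization (-1.04 in both). EGR1 was thus on the same side as HBEGF, BTC and EREG in this comparison, as were ETV5 (-0.36) and FOS (-0.35) among others. PLAUR (0.83), the highest of the list here, ETV4 (0.51) and the phosphatase gene DUSP6 (0.45) were among those on the other side. The median of the list was 0.16, with 15 genes above and 8 below 0. The further lists together counted 0 of 90 genes at 2-fold in this comparison, where only 0.527% of all genes were higher and 0.114% lower, so that counts of 0 say little.

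**Figure D4:**
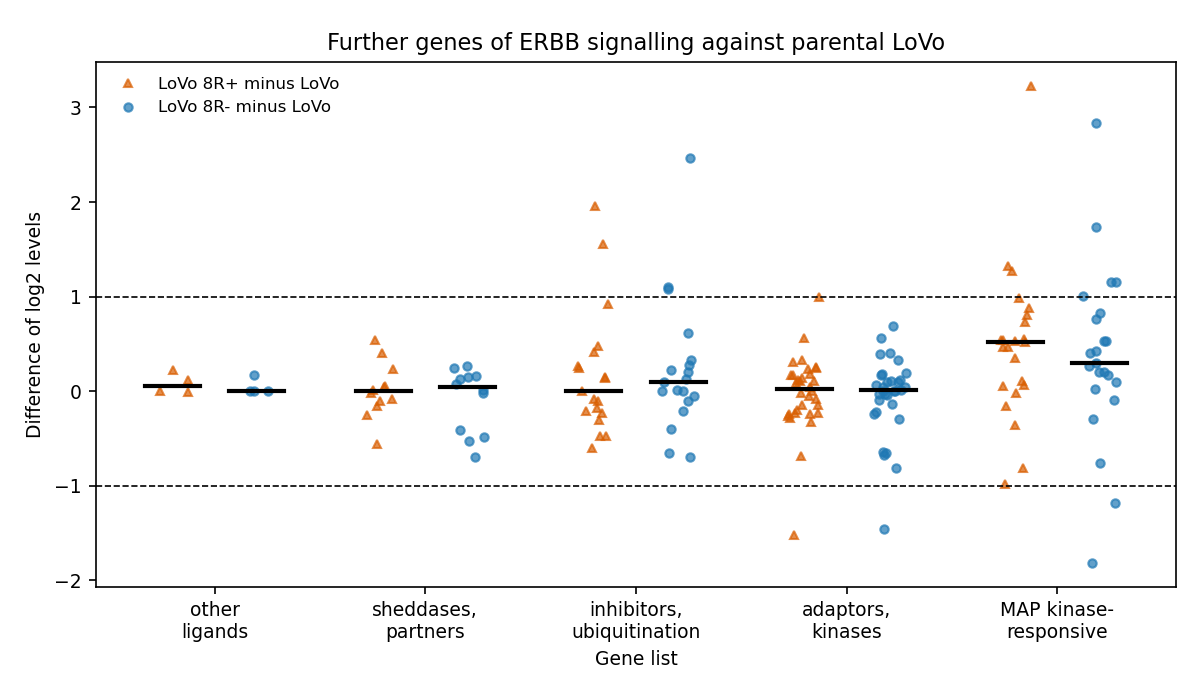
Log2 difference from LoVo (vertical axis) of each measured gene of 5 lists (horizontal axis) in LoVo 8R+ (triangles) and LoVo 8R- (circles), with the medians as black bars and 2-fold as dashed lines. The MAP kinase-responsive list has its medians at 0.52 and 0.30, and CBLB (1.95 and 2.47) is the highest of the inhibitors and ubiquitination factors on both arrays.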

How the data were processed

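Total RNA (300 ng per array) from LoVo 8R+, LoVo 8R- and LoVo was hybridized by the authors to 1 array each. The authors made and deposited log2 levels by RMA (background correction, quantile normalization across arrays and a summary per probe set), with Affymetrix Expression Console 1.1 per the submitters' processing notes and with R and Bioconductor per the paper's methods. Quantile normalization, the step before the summary, sets the arrays to 1 common distribution and would hide a shift of all RNA. The deposited probe set values were not identically distributed, with first quartiles of 5.39 in LoVo 8R+, 5.42 in LoVo 8R- and 5.39 in LoVo. The study's detection filter and p-value criterion were not applied. Of 33297 probe sets, 19460 name 1 gene in the array annotation, 1754 name several and 12083 are unnamed here. A gene was represented by its brightest single-gene probe set, which gave 18417 genes, of which 18389 were matched to RefSeq (GRCh38.p14) by Entrez identifier for gene order. All 10 genes described were matched.

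Arrays were assigned to cultures by their labels alone, so which LoVo-R8 array had irinotecan rests on the labels. Differences were computed by subtraction and counted at 2-fold. No test was possible with 1 array per culture. The genes and lists were chosen with earlier results of these data known. The named genes are the 10 listed, the further ligands, list genes and chromosomal neighbours at 2-fold against LoVo, and examples near the threshold or typical of a list, whose values were known when they were named. The rule for genes of like pattern named none, since none of the 10 passed 2-fold in both LoVo-R8 cultures. Motifs were chosen after the data were seen. The calculation was tested on simulated data. Alternatives were thresholds of 1.5-fold and 3-fold, median centring, loess correction (span 0.3, 3 iterations), repeated quantile normalization, filters at the 25th or 50th percentile of the brighter array, the mean over probe sets and the use of probe sets that name several genes. The second NRG1 probe set was added after seeing the data. Python 3.11.15, numpy 2.4.6, pandas 2.3.3, statsmodels 0.14.6 and matplotlib 3.10.9 were used.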

Additional observations from a re-analysis of the deposited data

How the results depend on the processing

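No paired analysis was possible because each culture has 1 array. Over 200 recomputed differences of the 10 genes, 198 moved by less than 0.18, and none past 2-fold changed sign. The 0.18 is the robust SD of the difference between the LoVo-R8 arrays over all genes. Many of the 200 could not move. A filter on dim probe sets only keeps or drops a gene, and only NRG1 has several probe sets to average. The use of probe sets that name several genes changed no value of the 10 genes. The sign turned for 3 small differences, that of ERBB2 in LoVo 8R- against LoVo with repeated quantile normalization (0.02) and that of NRG1 in LoVo 8R+ against LoVo 8R- with the mean over probe sets (-0.06) or the second probe set. The 2 larger moves were those of the second NRG1 probe set, at -0.23 for LoVo 8R+ against LoVo 8R- and 0.30 for LoVo 8R- against LoVo. HBEGF in LoVo 8R+ against LoVo left the count of 1 lower gene, giving 0, with loess correction, repeated quantile normalization and a 3-fold threshold, and its difference lay between -1.03 and -0.98. Against LoVo 8R- the count of 1 lower gene became 3 at 1.5-fold and 0 at 3-fold, and HBEGF lay between -1.29 and -1.21, BTC between -0.997 and -0.926 and EREG between -0.80 and -0.75. In LoVo 8R- against LoVo, 1 gene was higher at 1.5-fold, against 0 at 2-fold. For the 90 further genes, the 5 higher and 1 lower in LoVo 8R+ against LoVo became 11 and 5 at 1.5-fold and 2 and 0 at 3-fold. The 5 higher genes became 6 with median centring and 7 with loess correction or repeated quantile normalization. In LoVo 8R- against LoVo, the 8 higher genes became 3 at 3-fold, and the 3 lower ones became 11 at 1.5-fold and 1 at 3-fold. In LoVo 8R+ against LoVo 8R-, 3 of them were higher and 1 lower at 1.5-fold, against 0 and 0 at 2-fold, and 1 (EGR1) was lower at 2-fold with loess correction or repeated quantile normalization. Of all 18417 genes at 1.5-fold, 1066 were higher and 1324 lower in LoVo 8R+ against LoVo. These numbers were 804 and 1628 in LoVo 8R- against LoVo, and 529 and 198 in LoVo 8R+ against LoVo 8R-. The share of all genes at 3-fold was not computed. Median centring, both filters on dim probe sets, the mean over probe sets and the use of probe sets that name several genes were tried too. They left every 2-fold count of the 10 and of the 90 genes within 1.5 times its main value. Signal over background limits EPGN, NRG4, ETV1 in LoVo and, in part, NRG1, ERBB4, EGF and NRG3.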
